A study of Mus musculus with 8 samples.

Results

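Transcripts of 36 genes for glutamate receptors, their auxiliary subunits and glutamate transporters were followed on the tagged ribosomes of Otp-lineage cells, in mice with and without deletion of Cic, which encodes the transcriptional repressor Capicua. The genes were taken by symbol: 4 AMPA, 6 NMDA and 5 kainate receptor subunits, 1 delta receptor, 6 metabotropic receptors, 8 auxiliary subunits of AMPA and 2 of kainate receptors, 3 vesicular transporters and 1 uptake transporter. All 36 were among the 24421 gene rows, and all 36 passed the filter on low counts that left 15438 genes for testing. The 4 KO libraries came from C57BL/6 mice labelled Otp-Cre; Cicflox/flox; ROSAfsTRAP and the 4 Control libraries from C57BL/6 mice labelled Otp-Cre; ROSAfsTRAP. The Cre driver and the Cre-dependent TRAP allele, which tags ribosomes so that the RNA on them can be purified, were thus shared by both groups, and the floxed Cic allele was confined to KO. Cre activity in the Otp lineage limits the deletion to those cells, and the RNA came from dissected hypothalamus and medial amygdala. The labels number the replicates without saying whether each was 1 animal. The p-values therefore measure only how these samples spread, and that spread may be technical. The sources used here give neither age nor sex.

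Glutamate opens ionotropic receptors, which are tetramers of AMPA, NMDA or kainate subunits, and it also activates G protein-coupled metabotropic receptors. AMPA receptors carry most fast excitatory transmission, NMDA receptors admit calcium and need a co-agonist, and auxiliary proteins set the trafficking and gating of both AMPA and kainate receptors. Vesicular transporters load glutamate into synaptic vesicles and so mark the neurons that release it. Many neuroendocrine neurons of the hypothalamus, including some of the Otp lineage, use VGLUT2, the product of Slc17a6.

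Libraries held 33223878 to 49587839 gene counts in KO and 38171319 to 57300362 in Control, of which the 36 genes took 0.216% to 0.263%. KO replicate 4 had the fewest gene counts and the largest share of alignments that were not unique (81.9%, against 63.3% in Control replicate 1, the lowest). ERCC spike-in counts, relative to gene counts, were 0.0655%, 0.0569%, 0.395% and 0.0739% in KO replicates 1 to 4. In Control they were 0.299%, 0.522%, 0.401% and 0.327%. The bearing of these differences on the fold changes was not tested. Cic itself was lower in every KO library (34.5 to 59.3 CPM) than in any Control library (72.4 to 103 CPM; edgeR adjusted p = 0.00220). CPM are counts scaled to a common library size with TMM factors. Markers of the labelled lineage were present but low, with Otp at 2.69 to 8.55 CPM in KO and 2.28 to 5.01 in Control, and Sim1 at 15.5 to 31.6 and 11.2 to 19.2 CPM. All 6 Otp-lineage markers had a positive fold change and 0 passed edgeR's test (3 did so before adjustment), with sums of 267 to 393 CPM in KO and 230.0 to 319 in Control. RNA of other cells was also present. The 14 oligodendrocyte markers summed to 1785 to 3271 CPM in KO and 2796 to 3581 in Control, all 14 had a negative fold change and 1 fell, Cldn11. In such purified bulk RNA, fewer cells of a type and less RNA per cell cannot be told apart.

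None of the 36 genes passed edgeR's quasi-likelihood test of KO against Control at an adjusted p of 0.05, where 40 of 15438 genes tested did (0.259%, with 0.194% higher and 0.0648% lower in KO). DESeq2 and limma-trend also called 0 of the 36, beside 198 of 19289 and 30 of 15438 genes. DESeq2 was run without the filter on low counts. Its default settings can leave genes of low mean count without an adjusted p. Its share of the 19289 is therefore not on the same base as the shares of the 15438. At an unadjusted p of 0.05, edgeR gave 10.6% of all genes (6.06% higher and 4.53% lower in KO). DESeq2 gave 1934 of 19289 and limma-trend 1631 of 15438. Of the 36, each of these tests gave 2. Both were lower in KO: Cnih3, an auxiliary subunit of AMPA receptors, and Grm3, a group II metabotropic receptor. Grm3 was the only 1 of the 36 whose KO and Control libraries did not overlap, against 5.93% of all genes tested (3.01% higher and 2.91% lower in KO). Fold changes were positive for 15 genes and negative for 21, with a median log2 fold change of -0.03, beside 0.02 over all genes tested and 53.8% positive.

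The 95% intervals that limma-trend gave for the differences show how large a change these libraries could have hidden. For 33 of the 36 genes the interval lay within 2-fold in either direction, and for 29 within 1.5-fold. The 3 genes with a wider interval were Grin2c, Slc17a7 and Slc17a8.

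**Figure D1:**
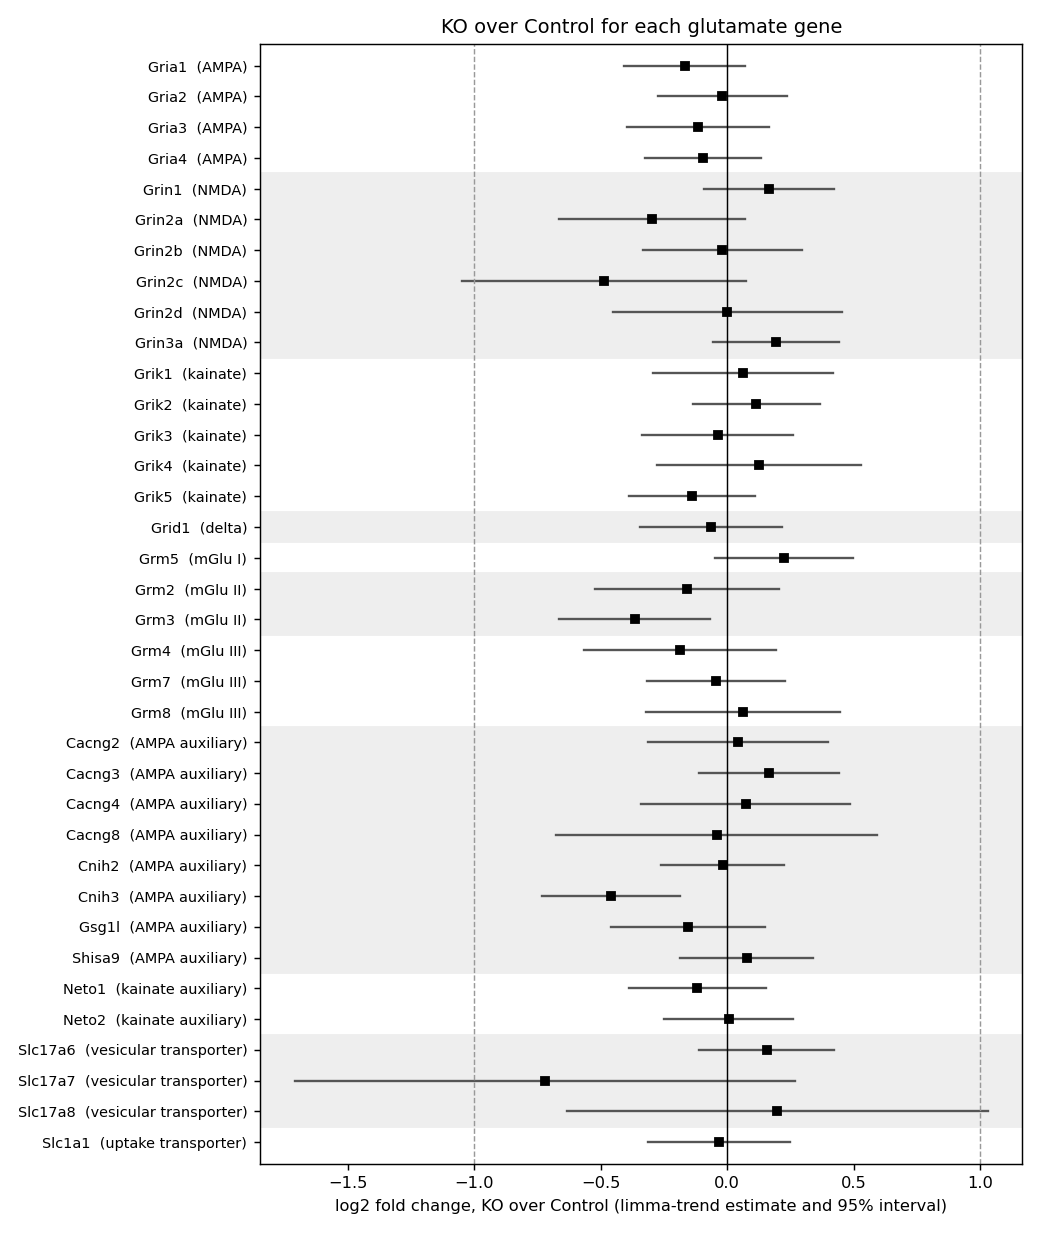
Log2 fold change of KO over Control for the 36 genes, grouped by role (shaded bands), with squares for the limma-trend estimate and lines for its 95% interval; dashed lines mark 2-fold. Intervals of 33 genes stay inside the dashed lines, and only those of Cnih3 and Grm3 leave out 0.

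Because Capicua represses genes through the octamers TGAATGAA, TCAATGAA, TGAATGGA and TCAATGGA, these were searched on both strands of RefSeq promoter windows on GRCm38.p6 that run from 250 bases before a start site to 50 after it. Of the 36 genes, 23 matched the table, with 29 windows, and 0 of the 29 held an octamer, against 3.84% of 32851 windows of the same length from all genes. Of 6 known Capicua targets that rose in KO (Etv4, Etv5, Spry4, Spred3, Dusp4 and Maff, chosen after their values were seen), 3 were in the table, and Maff and Spred3 each had a window with an octamer. The letters being absent from a window says nothing of sites elsewhere. The 250 bases before the start of Cnih3 and of Grm3 are shown because these were the pair with an unadjusted p under 0.05. Capitals mark GC boxes, GGGCGG on either strand, which 15 of the 29 windows and 32.7% of all windows held in these 250 bases. The Cnih3 stretch is chr1:181352378-181352627 on the plus strand and the Grm3 stretch chr5:9725353-9725602 on the minus strand.
Cnih3: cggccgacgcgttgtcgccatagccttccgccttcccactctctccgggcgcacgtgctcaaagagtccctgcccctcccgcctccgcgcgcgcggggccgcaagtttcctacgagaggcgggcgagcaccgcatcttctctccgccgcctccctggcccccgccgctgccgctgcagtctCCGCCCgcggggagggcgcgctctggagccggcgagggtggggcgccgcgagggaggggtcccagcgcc
Grm3: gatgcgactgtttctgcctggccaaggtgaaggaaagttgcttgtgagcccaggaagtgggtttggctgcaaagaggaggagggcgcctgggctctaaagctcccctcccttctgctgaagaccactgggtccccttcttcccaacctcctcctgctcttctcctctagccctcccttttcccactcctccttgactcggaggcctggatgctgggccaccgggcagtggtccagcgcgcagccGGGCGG
Each held 1 GC box and no octamer.

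The AMPA receptor subunits were close in the groups. Their log2 fold changes ran from -0.16 (Gria1) to -0.01 (Gria2), all on the negative side, and none had an edgeR adjusted p below 0.682. Gria1, which encodes GluA1, measured 152, 122, 126 and 149 CPM in KO replicates 1 to 4 and 164, 150.3, 153 and 148 CPM in Control. KO replicates 2 and 3 lay below every Control library and the other two within the Control range (means 137 ± 15.6 and 154 ± 7.31 CPM, SD, n = 4 each; log2 fold change -0.16 ± 0.09 SE, adjusted p = 0.682 by edgeR). Gria2, whose GluA2 subunit makes the channel poorly permeable to calcium once its transcript is edited, had 258, 190.3, 246 and 217 CPM in KO and 234, 204, 253 and 230.2 CPM in Control. The Gria2 groups overlapped throughout (228 ± 30.4 and 230.2 ± 20.3 CPM, n = 4 each; log2 fold change -0.01, SE 0.12). Gria3 (GluA3) was at -0.11 and Gria4 (GluA4) at -0.10.

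Per kb of exon, Gria1 made up the largest share of the 4 AMPA subunit transcripts, 37.4% ± 2.26 in Control and 35.8% ± 3.20 in KO (mean ± SD, n = 4 each). Gria2 had 21.7% ± 0.849 and 23.1% ± 1.87, Gria3 16.6% ± 1.36 and 16.6% ± 2.78, and Gria4 24.3% ± 0.624 and 24.5% ± 1.94. The groups overlapped for every subunit. The order depended on the length used. With exons of coding transcripts only, Control had 31.1% ± 2.19 Gria1, 25.6% ± 0.821 Gria2, 23.9% ± 1.74 Gria3 and 19.4% ± 0.442 Gria4. On that scale KO had 29.7% ± 3.15 Gria1 and 27.1% ± 2.01 Gria2, which do not differ beyond their spread, and in KO replicate 3 Gria1 (25.8%) lay below Gria2 and Gria3 (27.8% each). Shares were described and not tested.

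**Figure D2:**
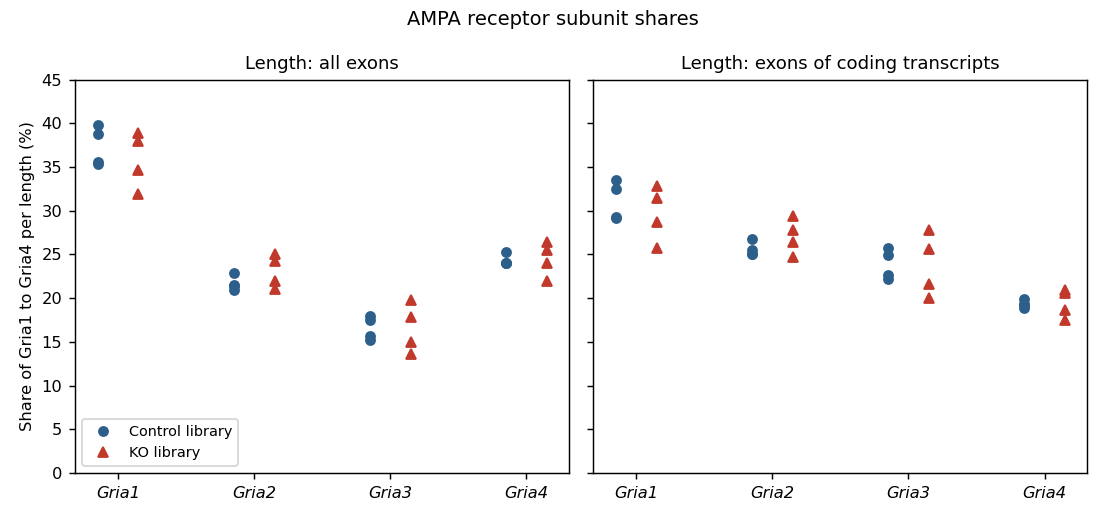
Share of each AMPA receptor subunit in the summed CPM per kb of Gria1 to Gria4 (percent, vertical axis), for Control (circles) and KO libraries (triangles), with length taken over all exons (left) or over exons of coding transcripts (right). Gria1 has the highest mean share on both scales, with KO libraries that reach the Gria2 and Gria3 range on the right, Gria4 changes place, and KO and Control overlap for each subunit.

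Among auxiliary subunits of AMPA receptors, Cnih3 had the lowest p of all 36 genes. Cnih3 encodes cornichon homolog 3, which slows the closing of AMPA receptors and aids their export. It measured 48.4, 46.5, 53.9 and 67.95 CPM in KO and 80.5, 67.91, 72.1 and 74.9 CPM in Control. KO replicates 1 to 3 lay below all Control libraries, and KO replicate 4 was level with the lowest Control library, replicate 2. The mean of the KO libraries, 54.2 ± 9.69 CPM, was 73.4% of the mean of the Control libraries, 73.9 ± 5.28 CPM (SD, n = 4 each; log2 fold change -0.45 ± 0.13 SE, adjusted p = 0.188 by edgeR, 95% interval -0.73 to -0.19 by limma-trend). Over 16 alternative settings its adjusted p ran from 0.0381 to 0.551, and it passed only without KO replicate 4 (log2 fold change -0.58, adjusted p = 0.0381). The gene (ENSMUSG00000026514.14) spans bases 181352628 to 181460641 of chromosome 1 (GRCm38, plus strand). Oligodendrocyte lineage markers shared its direction (all 14 oligodendrocyte and 7 of 8 precursor markers negative, none at 0). Library by library the match was partial. In Control the oligodendrocyte sums had the same order as Cnih3. In KO, replicate 2 had the highest sum (3271 CPM) and the least Cnih3. With a glial and vascular marker score as a covariate the Cnih3 log2 fold change was -0.37. The part of these cells in the Cnih3 values was not tested further.

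Cnih2, the other cornichon that joins AMPA receptors, had 77.9, 89.4, 90.0 and 104 CPM in KO and 86.8, 97.8, 89.4 and 90.1 CPM in Control, with the Control libraries inside the KO range (log2 fold change -0.01 ± 0.09 SE, adjusted p = 0.984 by edgeR, 95% interval -0.26 to 0.23). The difference between the 2 cornichons was not tested. Shisa9, which encodes the auxiliary protein CKAMP44, had 109, 126, 138 and 96.0 CPM in KO and 112, 98.4, 113 and 118 CPM in Control (log2 fold change 0.09 ± 0.13 SE, adjusted p = 0.870 by edgeR). The KO libraries of Shisa9 spanned the Control range on both sides. The TARP genes, whose products anchor AMPA receptors at synapses, had log2 fold changes of 0.10 (Cacng2, stargazin), 0.16 (Cacng3), 0.09 (Cacng4) and -0.09 (Cacng8), and Gsg1l, a regulator of the opposite kind, -0.17. Cacng2 spread widely in KO, from 57.7 CPM in replicate 4 to 127 in replicate 3, against 79.0 to 93.5 CPM in Control. Cacng8, the TARP known from hippocampus, was low in all libraries (2.12 to 4.69 CPM).

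The NMDA receptor subunits gave 3 positive and 3 negative fold changes. Grin1, which encodes the GluN1 subunit that every NMDA receptor needs, had 83.9, 97.3, 86.5 and 98.5 CPM in KO and 83.1, 69.3, 96.2 and 79.2 CPM in Control (log2 fold change 0.16 ± 0.11 SE, adjusted p = 0.714 by edgeR). It overlaps the exons of Grin1os on the opposite strand, and the counting is not stated to use strand, so reads of the pair cannot be told apart. Shorter overlaps with opposite-strand exons lie in Cacng2, Cnih2, Grin2b, Grin2c, Grin2d, Grm2, Grm7, Neto1 and Neto2. Grin3a, the gene of the atypical GluN3A subunit, stood above each of the GluN2 genes per kb of exon in all 8 libraries, at 6.65 ± 0.719 CPM per kb in Control and 7.59 ± 0.630 in KO. Grin2a, Grin2b, Grin2c and Grin2d had means of 1.43, 1.52, 2.16 and 2.24 CPM per kb in Control and 1.16, 1.48, 1.501 and 2.26 in KO. The library ranges of these 4 overlapped in Control, so no order among them is read. The log2 fold change of Grin3a was 0.19 (SE 0.10, edgeR adjusted p = 0.618).

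Grin2a and Grin2b encode the GluN2 subunits that exchange during postnatal maturation. Their log2 fold changes were -0.29 (SE 0.22, edgeR adjusted p = 0.594) and -0.04 (SE 0.17, edgeR adjusted p = 0.960). The Grin2a to Grin2b ratio per kb was 0.739, 1.06, 0.767 and 0.603 in KO and 0.794, 0.955, 1.097 and 0.942 in Control, so 3 KO libraries lay below every Control library and KO replicate 2 within the Control range. Grin2c had 5.11, 8.04, 6.58 and 10.5 CPM in KO and 15.9, 6.16, 12.5 and 8.97 CPM in Control (log2 fold change -0.53 ± 0.37 SE, adjusted p = 0.498 by edgeR). Its groups overlapped, and without Control replicate 1 the log2 fold change was -0.29. Grin2c transcripts are also known from astrocytes and thalamus. With the glial and vascular marker score as a covariate the log2 fold change was -0.30.

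Kainate receptor subunits differed little. Log2 fold changes ran from -0.13 (Grik5) to 0.11 (Grik2), with Grik1 at 0.05, Grik3 at -0.03 and Grik4 at 0.11. Grik5, which encodes the high-affinity GluK5 subunit, lies on chromosome 7 from 25009849 to 25072346 (ENSMUSG00000003378.9), 0.195 Mb from Cic, and was the only member within 10 Mb of it. Grik5 measured 98.6, 84.1, 96.7 and 76.1 CPM in KO and 98.1, 95.5, 105 and 90.9 CPM in Control (88.9 ± 10.7 and 97.4 ± 5.95, n = 4 each; SE 0.10, edgeR adjusted p = 0.762, 95% interval -0.39 to 0.11). KO replicates 2 and 4 were below all Control libraries and the other pair lay among them. For Grik5, an effect of DNA linked to the floxed allele and an effect of losing Cic cannot be told apart. Per kb of exon Grik5 had 18.9 ± 1.15 CPM in Control, above Grik3 at 5.12 ± 0.587, Grik2 at 3.59 ± 0.345, Grik1 at 2.14 ± 0.390 and Grik4 at 1.49 ± 0.277. The kainate receptor partners Neto1 and Neto2, which alter channel gating, were at -0.12 and 0.02. The delta receptor gene Grid1, whose product organises synapses, was at -0.07 (edgeR adjusted p = 0.906).

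Grm3 was the metabotropic receptor gene with the lowest p. Its product, mGlu3, inhibits adenylyl cyclase and is known from astrocytes and oligodendrocyte precursors as well as neurons. Grm3 had 16.6, 16.5, 16.7 and 17.2 CPM in KO and 24.5, 19.7, 23.1 and 19.3 CPM in Control. Every KO library was below every Control library, and the KO libraries were within 1 CPM of each other. The means of 16.7 ± 0.324 and 21.6 ± 2.54 CPM put KO at 77.2% of Control (n = 4 each; log2 fold change -0.37 ± 0.09 SE, adjusted p = 0.339 by edgeR, 95% interval -0.66 to -0.07). Over the 16 alternatives the log2 fold change stayed between -0.42 and -0.31 and the adjusted p between 0.171 and 0.730. Markers of oligodendrocyte precursors shared its direction, as 7 of 8 had a negative fold change, with none at 0. Their sum was 116 to 181 CPM in KO, where Grm3 was level, and 180.4 to 217 in Control. Control replicate 4, with the least Grm3 in Control, had a sum of 214 CPM. The sum was mostly Olig1 (means of 73.9 CPM in KO and 97.1 in Control) and Bcas1 (33.9 and 47.5). Pdgfra (3.16 and 4.21), Cspg4 (2.31 and 2.67) and Vcan (5.09 and 4.33) added little, so the sum says little of these markers. Negative fold changes also held for 14 of 14 oligodendrocyte, 11 of 12 microglial, 7 of 8 ependymal and tanycyte, and 6 of 11 endothelial and mural markers. The part of these cells in the Grm3 values was not tested. Astrocyte markers were negative in 6 of 10, with sums of 1668 to 2333 CPM in KO and 1656 to 2100 in Control. Atp1b2, on the positive side at 0.40, was a large part of these sums (means of 749 CPM in KO and 566 in Control). Aldh1l1, at -0.58, was low and had 2.65 to 7.69 CPM in KO and 7.95 to 10.2 in Control. With the glial and vascular covariate the Grm3 log2 fold change was -0.35. Grm3 (ENSMUSG00000003974.6) lies on chromosome 5 from 9485541 to 9725170 on the minus strand.

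The other group II receptor, Grm2, was at -0.15 (edgeR adjusted p = 0.832). Grm5, the group I receptor mGlu5 that couples to phospholipase C, was on the positive side, with 82.2, 76.4, 72.3 and 74.2 CPM in KO and 70.4, 49.6, 73.5 and 70.3 CPM in Control (log2 fold change 0.21 ± 0.14 SE, adjusted p = 0.615 by edgeR). Control replicate 2 was far below the other 3 Control libraries. Group III receptors sit at axon terminals and curb release. Of these, Grm4 was at -0.16 with a wide KO range of 46.1 to 89.6 CPM, Grm7 at -0.04 and Grm8 at 0.06.

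**Figure D3:**
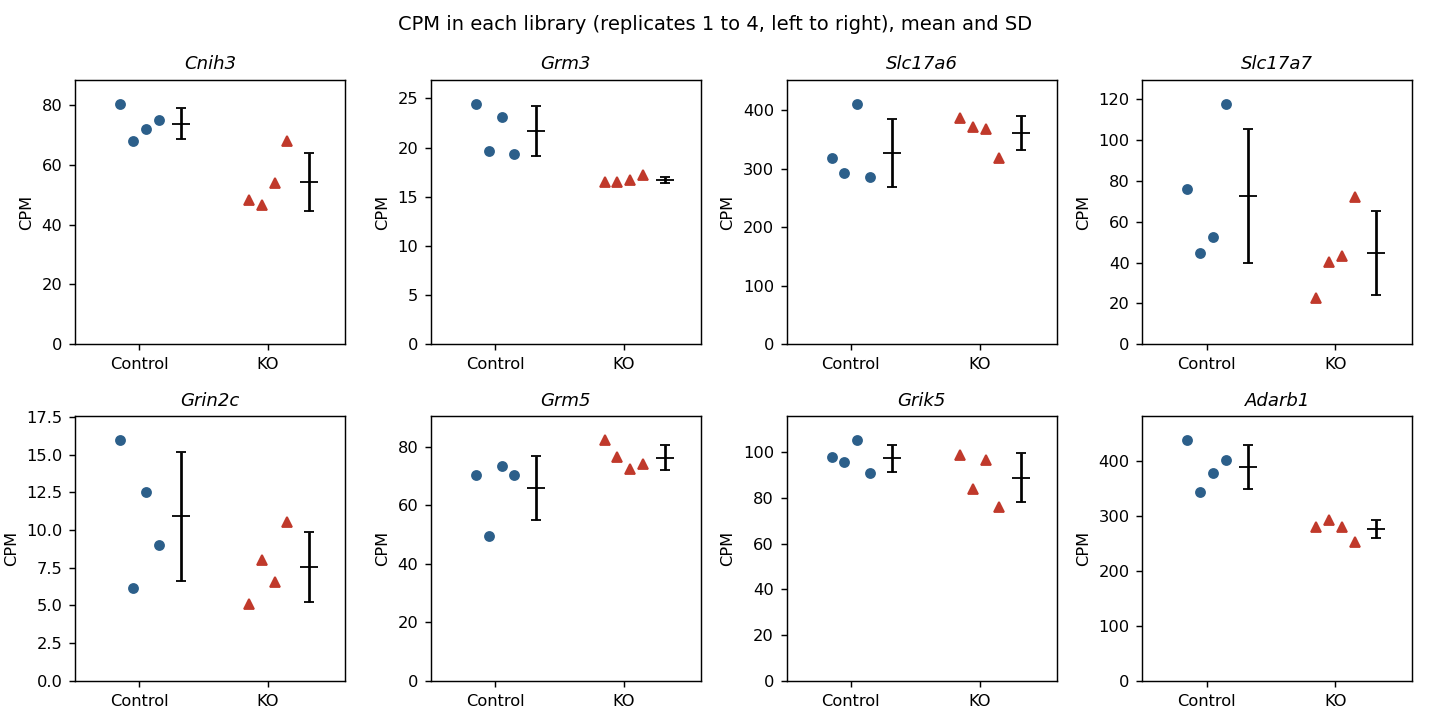
CPM of 8 genes in each Control (circles) and KO library (triangles), replicates 1 to 4 from left to right, with the mean and SD of 4 beside them; every vertical axis starts at 0. Grm3 and Adarb1 show KO libraries all below Control, Cnih3 touches at KO replicate 4, and the remaining panels overlap.

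Of the vesicular transporters, Slc17a6 (VGLUT2) was by far the most abundant. It measured 387, 371, 368 and 319 CPM in KO and 318, 293, 411 and 286 CPM in Control. The KO libraries all exceeded 3 of the Control libraries, while Control replicate 3 was above every KO library (log2 fold change 0.14 ± 0.13 SE, adjusted p = 0.763 by edgeR). Per kb of exon, Slc17a6 and Cnih2 led the 36 genes, at 60.6 ± 10.7 and 66.5 ± 3.46 CPM per kb in Control, which do not differ beyond their spread. Next came Cnih3 (26.8 ± 1.92), Gria1 (25.4 ± 1.21), Shisa9 (21.02 ± 1.57) and Grik5 (18.9 ± 1.15), and the first pair of these do not differ beyond their spread. The same 6 genes led with the length of coding transcripts. The lowest was Slc17a8 (VGLUT3), at 0.554 ± 0.109 CPM per kb. Slc17a8 had 4.06, 6.57, 1.34 and 2.13 CPM in KO and 2.995, 2.82, 2.78 and 1.86 CPM in Control. Its KO libraries spread on both sides of the Control range (log2 fold change 0.43 ± 0.53 SE, adjusted p = 0.769 by edgeR).

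Slc17a7 (VGLUT1), the transporter of cortical and many thalamic projection neurons, varied the most between libraries among genes above 10 CPM. It had 22.7, 40.1, 43.0 and 72.2 CPM in KO and 75.9, 44.7, 52.6 and 118 CPM in Control. Control replicate 4 was the highest library and KO replicate 1 the lowest, and KO replicate 4 lay among the Control libraries. The coefficients of variation were 46.1% in KO and 45.2% in Control, against medians over the 36 genes of 12.7% and 14.0%. The log2 fold change of -0.71 (SE 0.46, edgeR adjusted p = 0.633, 95% interval -1.71 to 0.27) became -0.38 when Control replicate 4 was left out, -1.05 when KO replicate 4 was, and -0.32 with the marker score covariate.

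Summed markers of other regions did not share one order with Slc17a7. The 6 thalamic markers, 5 with a negative fold change and none at 0, summed to 495, 752, 762 and 523 CPM in KO replicates 1 to 4 and 890.1, 508, 676 and 929 CPM in Control. The highest thalamic sums were in Control replicates 4 and 1, which also had the most Slc17a7, but KO replicate 4, with the most Slc17a7 in KO, had a lower sum than KO replicates 2 and 3, which had less Slc17a7. The 7 striatal markers, 3 negative and none at 0, summed to 101.3, 100.6, 114 and 137 CPM in KO and 127, 88.7, 119 and 149.8 CPM in Control, highest in replicate 4 of each group. Markers of telencephalic excitatory neurons were negative in 5 of 8 tested, with sums of 92.9 to 124 CPM in KO, highest in replicate 3, and 98.9 to 120.2 in Control, and Emx1 was at 0 in 2 libraries. The order of single markers in these lists was not compared. The part of these regions in the Slc17a7 values was not tested. Slc17a6 made up 88.1% ± 5.15 of the 3 vesicular transporters per kb in KO and 81.1% ± 7.89 in Control (n = 4 each). With exons of coding transcripts only, the shares were 84.8% ± 6.59 and 76.2% ± 9.45, down to 63.5% in Control replicate 4. The libraries overlapped on both scales. Slc1a1, the neuronal uptake transporter EAAC1, was at -0.04 (edgeR adjusted p = 0.943), and overlaps exons of 4430402I18Rik on the opposite strand.

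**Figure D4:**
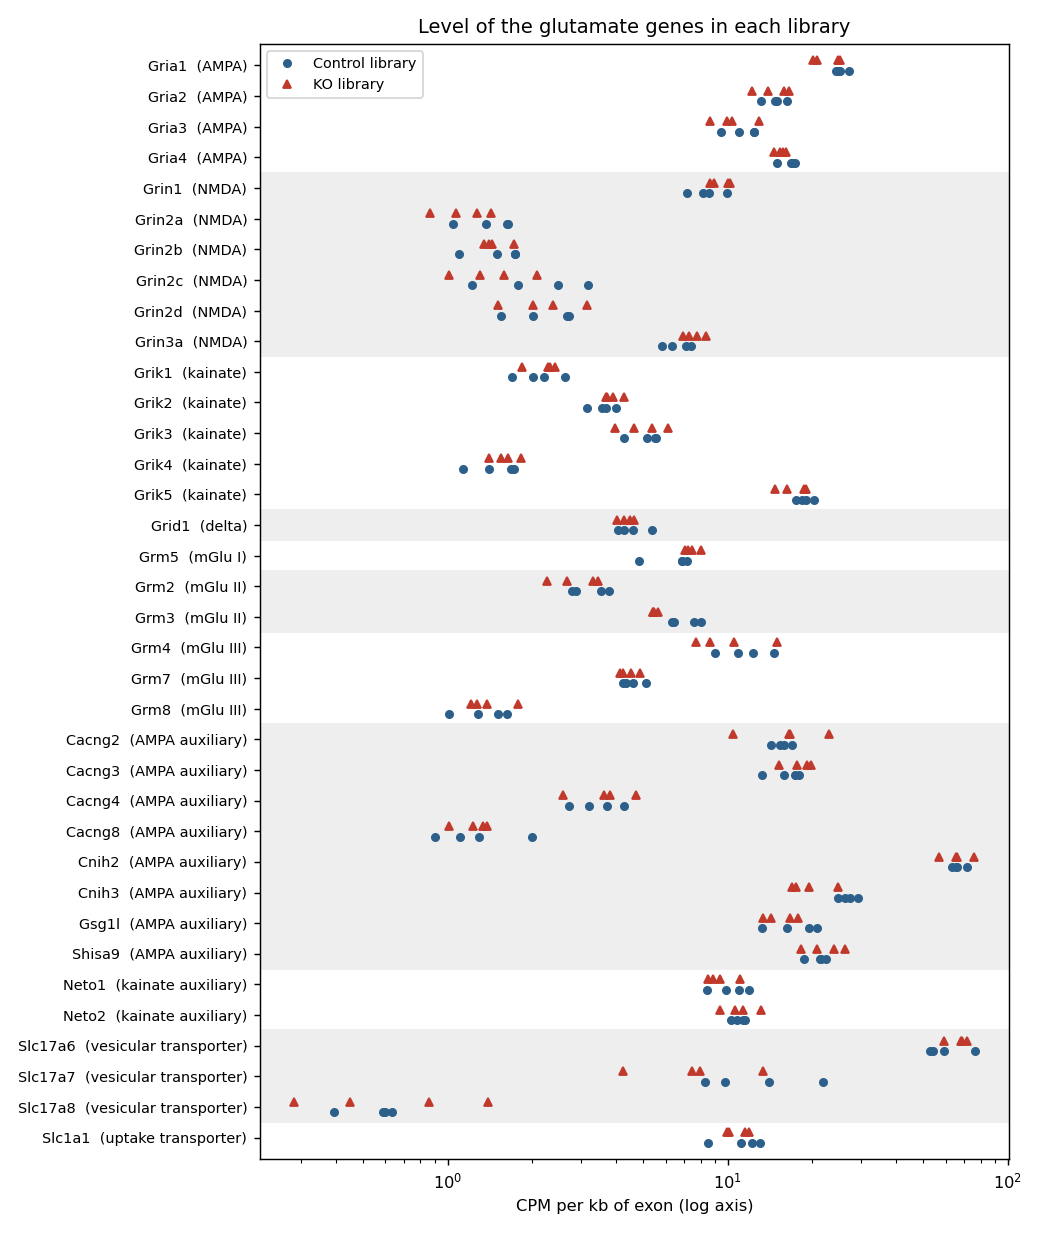
Level of each of the 36 genes in CPM per kb of exon (log axis) in Control (circles) and KO libraries (triangles), grouped by role. Slc17a6 and Cnih2 stand highest and Slc17a8 lowest, and the KO and Control libraries overlap for 35 of the 36 genes, the exception being Grm3.

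A further 67 genes of glutamate signalling outside the 36 were read in the same fit. Of these 65 were tested, 35 with a positive and 30 with a negative fold change (median 0.02), and 0 passed edgeR's adjusted p of 0.05. DESeq2 called 2, beside 198 of 19289 genes, and limma-trend 0, beside 30 of 15438. At an unadjusted p of 0.05 edgeR gave 7 of 65, beside 10.6% of all genes. DESeq2 gave 10 of 65, beside 1934 of 19289 genes, and limma-trend 8 of 65, beside 1631 of 15438. In 5 of 65 (7.69%) the groups did not overlap, 1 higher and 4 lower in KO, beside 5.93% of all genes.

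The gene of lowest p among them was Adarb1, which encodes ADAR2, the enzyme that edits the Gria2 transcript. Adarb1 had 279, 293, 279.6 and 252 CPM in KO and 436, 342, 377 and 401 CPM in Control. All KO libraries were below all Control libraries, at means of 276 ± 17.05 and 389 ± 39.7 CPM (n = 4 each; KO over Control 0.709, log2 fold change -0.50 ± 0.09 SE, adjusted p = 0.0875 by edgeR). DESeq2 gave an adjusted p of 0.00161, and over all 16 alternatives it ran from 0.00161 to 0.421. Counts do not show whether editing of Gria2 differed. Adarb1 (ENSMUSG00000020262.15) lies on chromosome 10 from 77290726 to 77418270.

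Of 23 scaffolds and partners, 14 were positive and 9 negative. Shank3, a scaffold beneath glutamate receptors, had 70.8, 62.9, 85.2 and 51.9 CPM in KO and 117, 98.5, 93.1 and 93.5 CPM in Control, again with no overlap (log2 fold change -0.57 ± 0.17 SE, adjusted p = 0.112 by edgeR). DESeq2 gave an adjusted p of 0.0169, the replicate block 0.0491 and the fit that left out KO replicate 3 gave 0.0470, and over the 16 alternatives it ran from 0.0169 to 0.452. Elfn1, which recruits presynaptic metabotropic receptors, was at 0.38 (edgeR adjusted p = 0.353). Of 21 other auxiliary and assembly genes, 9 were positive and 12 negative, and after Adarb1 the lowest p was that of Shisa7 (0.32, SE 0.11, edgeR adjusted p = 0.353), which lay higher in every KO library.

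The remaining lists held no gene past the test either. Of 4 further receptor subunits 3 were tested, with Grin3b at -0.37 (SE 0.75, edgeR adjusted p = 0.911). Grin3b was near the floor, at 0.0919 to 0.693 CPM in KO and 0.212 to 0.537 in Control. In glutamate uptake 5 of 6 were tested and 4 were negative, with Slc1a6 at -0.21 and Slc1a2, the main astrocyte transporter, at -0.14. In glutamate and glutamine metabolism 7 of 9 were positive. Gls2, a glutaminase that makes glutamate, was at -0.30 with KO libraries all below Control (14.2 to 19.1 and 19.4 to 24.8 CPM, edgeR adjusted p = 0.493), and Got1, an aminotransferase, at 0.19. Of 4 genes that handle the NMDA co-agonists 3 were positive, with Srr, serine racemase, at 0.17. Slc7a10, which lies 9.892 Mb from Cic, was at 0.64 (SE 0.49, edgeR adjusted p = 0.540). Its libraries held 2.97 to 10.6 CPM in KO and 3.46 to 6.09 in Control.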

How the data were processed

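RNA of 8 libraries, 10 ng each, was amplified and sequenced, per the labels' protocols. The deposited values are raw counts per gene symbol. The submitters' processing notes name TopHat2 2.0.9, HTSeq, DESeq2 and the build mm10, and the sources used here give neither annotation nor strand setting. The 92 ERCC and 5 HTSeq counter rows were left out. No molecular identifiers are named.

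The test was edgeR 4.0.16, run under R 4.3.3 (filterByExpr with a minimum count of 10 and total of 15, TMM, robust quasi-likelihood fit, 4 KO against 4 Control, no covariate), with Benjamini-Hochberg adjustment over all 15438 genes. CPM use the tested genes' library sizes. SE is that of the difference of group means of log2 CPM. Alternatives used DESeq2 1.42.0, other scalings and filters, a replicate block, a glial and vascular covariate (the mean log2 CPM of the astrocyte, oligodendrocyte, precursor, microglial, endothelial and mural markers) and 7 of 8 libraries. The limma-trend test (limma 3.58.1, 95% intervals) and coding-transcript lengths were chosen after seeing the data. Lengths, positions and overlaps are from GENCODE M21 (GRCm38, the build of mm10). On simulated data the fit recovered 25 of 50 genes changed 1.5-fold and 33 of 50 changed 2-fold. It recovered 38 of 50 at 3-fold and 42 of 50 at 4-fold, with 9 false calls. The 36 members and all lists were chosen with earlier results of these data known. Values in every library are given for members past an unadjusted p of 0.05, the 6 highest per length and Grik5, and from the other lists the 2 genes of lowest p are named, except 1 that is not reported here. Gria2, Grin1, Grin2c, Grm5, Slc17a7, Slc17a8, Gls2, Grin3b, Slc7a10 and the Grin2a to Grin2b ratio were given in more detail after their values were seen.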

Additional observations from a re-analysis of the deposited data

Results flagged for a closer look

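In 1 of 72 groups of 4 libraries looked at (36 genes in KO and in Control), 1 library stood apart from the other 3 by a gap above Dixon's limit for 4 samples. Grm5 had 49.6 CPM in Control replicate 2, against 70.3 to 73.5 CPM in the other Control libraries, a gap of 0.865 of the range. Chance flags about 1 in 20 such groups.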

How the results depend on the processing

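Of the 36 genes, 20 kept the sign of their log2 fold change in all 16 alternatives and 16 did not. None of the 36 passed in any alternative except Cnih3 without KO replicate 4, so leaving out 1 library gave 0 to 1 called. Genes called over the whole table, 40, became 26 with total counts only, 198 with DESeq2 (119 higher and 79 lower, beside 30 and 10), 65 with the replicate block and 24 with the glial and vascular covariate, and ran from 14 (without Control replicate 4) to 53 without 1 library. Leaving out Control replicate 1 gave 19, Control replicate 2 gave 17, and Control replicate 3 and KO replicate 2 gave 26 each. Genes of the 36 with no overlap, 1, became 2 (Cnih3 joining Grm3) with DESeq2 size factors, total counts only or DESeq2, where 6.02%, 6.04% and 6.02% of all genes had none. They ran from 1 to 5 without 1 library, where 7.65% to 12.2% of all genes had no overlap: 2 without KO replicate 3 (all genes 9.76%), 3 without KO replicate 4 (12.2%) or Control replicate 2 (8.76%), and 5, or 13.9%, without Control replicate 3 (9.62%). The median log2 fold change of the 36 ran from -0.09 to 0.02 without 1 library. Nothing in the labels ties same-numbered libraries as a pair. Deviations of same-numbered libraries correlated at -0.04 to 0.09 and 1 of 4 KO libraries correlated best with its own number, and the replicate block called 0 of the 36. With the glial and vascular covariate the sign turned for Grin2b (0.025), Grin2d (-0.22), Cacng2 (-0.0035), Cnih2 (0.011) and Slc1a1 (0.011). Without 1 library, log2 fold changes of the 36 that turned ran from -0.18 to 0.16 for Grin2d, -0.13 to 0.066 for Grik3, -0.094 to 0.042 for Cnih2, -0.088 to 0.054 for Gria2, -0.084 to 0.16 for Grm8, -0.084 to 0.078 for Neto2, -0.066 to 0.70 for Slc17a8, -0.10 to 0.26 for Cacng2, -0.053 to 0.21 for Cacng4, -0.17 to 0.035 for Grin2b, -0.0015 to 0.19 for Grik4, -0.12 to 0.016 for Grid1, -0.091 to 0.012 for Grm7, -0.24 to 0.17 for Cacng8, -0.16 to 0.034 for Slc1a1, and -0.045 to 0.17 for Grik1. Outside the 36, Slc1a2 ran from -0.26 to 0.036. The cause of these changes was not tested. Counts of the 36 ran from 54 to 18788 per library.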
